A study of Mus musculus with 54 samples.

Results

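The distal ends of mouse chromosomes 16 and 17 were examined in a merged list of open chromatin regions (peaks) from mouse embryonic stem (ES) cells. The members were all peaks whose centre lay beyond 65.8 Mb on chromosome 16 or beyond 73.4 Mb on chromosome 17 of the genome build GRCm38. The rule gave 544 peaks at the end of chromosome 16 and 905 at the end of chromosome 17. Together these were 1449 of the 113737 peaks in the list, or 1.27%. Both ends were chosen by their low number of peaks in an earlier reading of the same list, so their peak density is a description of the choice and was not tested. The end of chromosome 17 did not match the description of a sparse end along its whole length. It held few distal peaks up to 86.4 Mb and many from there to the last sequenced bases, and it is therefore named below by its position alone.

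Open chromatin was measured by ATAC-seq, in which the Tn5 transposase inserts sequencing adapters into accessible DNA, in ZHBTc4 ES cells. In this line doxycycline (dox) switches off Pou5f1, the gene of the pluripotency factor OCT4. Dox was present in every group, untreated controls included, and for at least 24 hr before any auxin was added. OCT4 came instead from mCherry-OCT4-AID, a fusion driven at a low level by a PGK promoter and degraded when auxin (IAA, 500 nM) is given to cells that carry Tir1-V5, and the cells also carried YPet-MD, a reporter of the cell cycle. A first set of 22 samples had 26 hr of dox, with or without 2 hr of IAA, and was sorted into Early G1, Late G1, S and Late S/G2. The second set of 16 samples had 31 hr of dox and the same sorted phases, with or without 2.5 hr of IAA before 4.5 hr of washout. The third set of 16 unsorted samples had 34 hr of dox and IAA for 30 min, 1, 2, 3, 4, 6 or 10 hr or not at all. The 54 samples formed 24 groups of 2 or 3. The list merges peaks over these samples and holds positions only, so no value below belongs to a sample, a group or an IAA treatment, and no replicate error could be given. Depth is unknown from the list, and the intervals below are 95% intervals that cover counting error only.

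Peaks are of different kinds. At promoters they often sit on CpG islands, stretches rich in G, C and CG dinucleotides that stay unmethylated and open in most cell types, whether or not the gene is highly transcribed. Away from promoters they mark enhancers, which are used by particular cell types, and binding sites of CTCF, the protein that anchors chromatin loops. In ES cells many enhancers are bound by OCT4 together with SOX2, at a composite motif in which a SOX site lies next to an OCT site. Peaks with a centre at most 1 kb from the transcription start site (TSS) of any annotated transcript were counted as proximal and all others as distal. The distal end of mouse chromosome 16 carries many of the genes found on human chromosome 21, among them App, Sod1, Runx1, Olig2 and Dyrk1a. The last part of mouse chromosome 17 carries the mismatch repair gene Msh6 and the hormone receptor genes Lhcgr and Fshr.

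Promoters with and without CG-rich sequence are shown first, since the share of genes with a peak differed between these classes. Each run below holds the 250 bases before the TSS, on the strand of the gene, from RefSeq on GRCm38.p6, with every CG dinucleotide in capitals. They were chosen after their values were seen. Zbtb21, which encodes a zinc finger protein, and Memo1, which encodes a protein of cell motility signalling, had a peak over all 250 bases and no distal peak within 50 kb. Krtap24-1, a keratin-associated protein gene of hair, had no peak over these bases.
Zbtb21, chr16:97962623-97962872, minus strand: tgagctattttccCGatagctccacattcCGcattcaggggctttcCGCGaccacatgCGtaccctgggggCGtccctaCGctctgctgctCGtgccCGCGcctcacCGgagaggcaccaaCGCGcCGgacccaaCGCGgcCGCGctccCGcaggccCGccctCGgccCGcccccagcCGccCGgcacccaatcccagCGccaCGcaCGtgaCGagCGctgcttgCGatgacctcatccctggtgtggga
Memo1, chr17:74294864-74295113, minus strand: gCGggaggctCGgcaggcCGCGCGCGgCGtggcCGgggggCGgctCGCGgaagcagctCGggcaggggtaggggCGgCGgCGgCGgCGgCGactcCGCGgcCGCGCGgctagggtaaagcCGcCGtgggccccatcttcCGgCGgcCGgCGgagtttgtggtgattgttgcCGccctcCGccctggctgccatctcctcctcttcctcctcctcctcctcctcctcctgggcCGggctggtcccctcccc
Krtap24-1, chr16:88612280-88612529, minus strand: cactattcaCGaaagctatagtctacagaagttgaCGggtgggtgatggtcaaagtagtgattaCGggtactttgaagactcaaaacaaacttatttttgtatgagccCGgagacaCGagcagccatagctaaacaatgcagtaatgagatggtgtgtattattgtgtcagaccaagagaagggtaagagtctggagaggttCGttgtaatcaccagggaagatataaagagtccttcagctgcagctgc
The Zbtb21 run held 30 CG dinucleotides, that of Memo1 32 and that of Krtap24-1 6. Over the protein-coding genes with such a RefSeq entry, the median number in these 250 bases was 20 for the 59 genes of the chromosome 16 end with a TSS peak and 2 for the 44 without one. At the chromosome 17 end the medians were 18 for 57 genes with a TSS peak and 6 for 7 genes without one. Over all autosomes they were 16 for 9243 genes and 2 for 3852 genes.

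Distal peaks with a sequence like the composite OCT4::SOX2 motif were few, and 2 from each end are shown. The motif searched was the SOX part CATTGT, any 1 base and the OCT part ATGCAAAT, on both strands, with up to 2 mismatches allowed. Each run holds 100 bases of GRCm38.p6 on the plus strand, with the matched bases in capitals, and each of the matches used both mismatches.
OCT4::SOX2-like, in an intron with Gm11146 as the nearest protein-coding gene, chr16:77644345-77644444: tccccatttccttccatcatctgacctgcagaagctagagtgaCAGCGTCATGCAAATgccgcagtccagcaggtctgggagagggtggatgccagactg
OCT4::SOX2-like, between genes near Cldn14, chr16:94038356-94038455: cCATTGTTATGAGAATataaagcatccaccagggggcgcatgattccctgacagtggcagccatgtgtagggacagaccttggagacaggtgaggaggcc
OCT4::SOX2-like, between genes near Epcam, chr17:87550009-87550108: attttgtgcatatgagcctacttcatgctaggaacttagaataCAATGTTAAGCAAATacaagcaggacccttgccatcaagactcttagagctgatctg
OCT4::SOX2-like, between genes near Fshr, chr17:89272428-89272527: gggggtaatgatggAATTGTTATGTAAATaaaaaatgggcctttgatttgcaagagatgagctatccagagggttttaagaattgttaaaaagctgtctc
A match to the CTCF consensus is shown for the widest distal peak of the chromosome 16 end that held one, with the matched bases in capitals and the motif on the minus strand.
CTCF-like, between genes near Bace2, chr16:97293470-97293569: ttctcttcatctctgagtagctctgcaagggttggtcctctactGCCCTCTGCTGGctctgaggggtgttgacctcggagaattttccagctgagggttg

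The end of chromosome 16 held 412 distal and 132 proximal peaks in 32.3 Mb of sequenced bases. This was 12.8 distal peaks per Mb, whereas the rest of chromosome 16 held 31.8 per Mb and the other 17 autosomes held 31.8 to 42.9 per Mb. Proximal peaks numbered 4.09 per Mb, against 8.44 in the rest of the chromosome and 7.40 to 14.4 on the other autosomes. All peaks together covered 1.07% of the end and 2.42% of the rest of the chromosome. The end was also poorer in genes, with 33.4 TSSs per Mb against 49.6, and had 39.9% GC against 41.5%.

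To set peak number beside regions of like sequence, the ends were cut into bins of 1 Mb, and each bin was compared with the other autosomal bins whose GC content lay within 1 percentage point and whose number of TSSs lay within 25% or 2. The chromosome 16 bins had from 25 matched bins upwards, with a median of 84. In all 32 bins of the chromosome 16 end the number of distal peaks lay below the median of the matched bins. The bins summed to 411 distal peaks where the medians summed to 940, a ratio of 0.437 (0.396 to 0.481). Of 2321 autosomal bins outside both ends, 49.2% lay below their own matched median. Proximal peaks numbered 126 against 182, a ratio of 0.694 (0.578 to 0.826), and 23 of the 32 bins lay below the matched median.

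**Figure D1:**
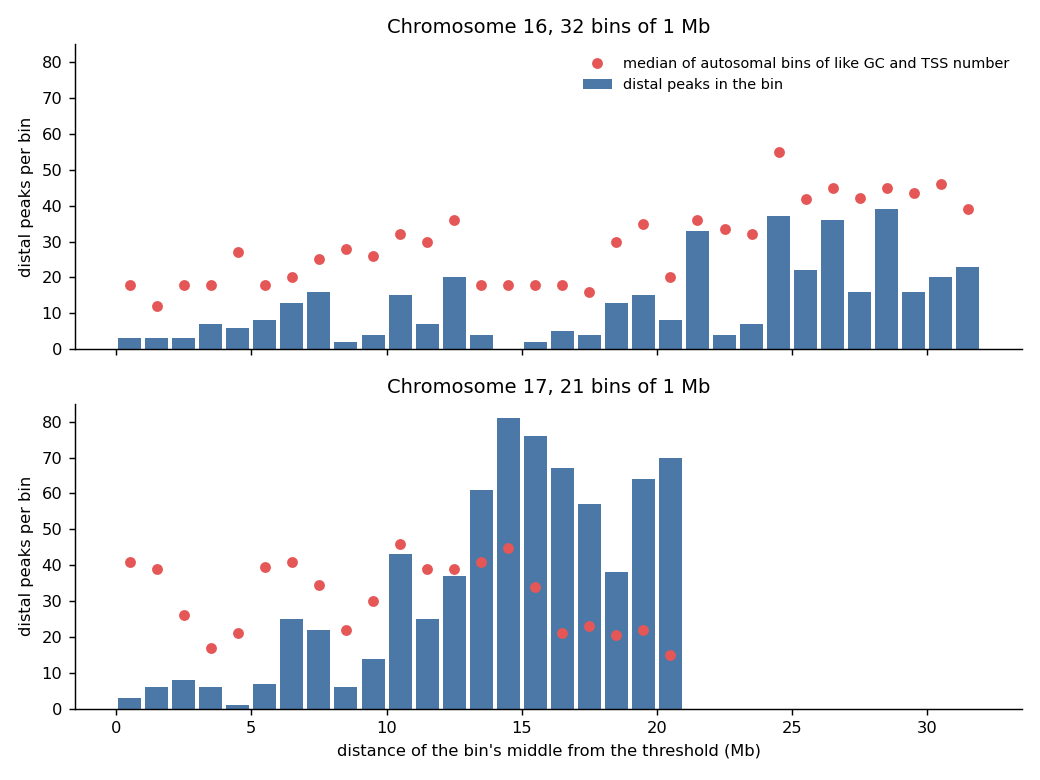
Distal peaks in each 1 Mb bin of the ends of chromosomes 16 (top) and 17 (bottom), against the distance of the bin from the threshold in Mb; bars are the observed number and dots the median of autosomal bins with like GC content and number of TSSs. All 32 bars of chromosome 16 end below their dots, whereas on chromosome 17 the first 13 bars end below and the last 8 above.

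The chromosome 16 end changed in sequence along its length, and the change was placed at 89.8 Mb, where the GC content of neighbouring bins stepped from 40.0% to 46.8%. The 24 bins before this step held 202 distal peaks against a matched sum of 583, a ratio of 0.347 (0.301 to 0.398). The 8 bins beyond it held 209 against 358, a ratio of 0.584 (0.508 to 0.669). Proximal peaks numbered 38 against 66.1 in the first stretch and 88 against 116 in the second, with ratios of 0.575 (0.407 to 0.789) and 0.762 (0.611 to 0.939). Both stretches were thus below their matched bins, the GC-poor one further.

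Single bins of the GC-poor stretch ranged widely. The bin from 79.8 to 80.8 Mb had 0 distal peaks where its matched bins had a median of 18 and at least 1 each. The bin from 73.8 to 74.8 Mb had 2 against 28, and that from 87.8 to 88.8 Mb, which holds keratin-associated protein genes, had 4 against 33.5. In none of these 3 bins did any matched bin have fewer. The bin from 86.8 to 87.8 Mb, which holds Bach1, came closest with 33 against 36. Beyond the step the counts ran from 16 in the bins at 92.8 and 94.8 Mb to 39 in the bin at 93.8 Mb, where the matched median was 45.

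The end of chromosome 17 held 762 distal and 143 proximal peaks in 21.5 Mb. At 35.5 distal peaks per Mb it lay between the rest of chromosome 17, with 40.8, and the lowest autosome, with 31.8. Over its 21 matched bins distal peaks numbered 717 against 656, a ratio of 1.09 (1.01 to 1.18), and proximal peaks 139 against 132, a ratio of 1.06 (0.888 to 1.25). With 4 bins of 5 Mb, which leave out the bin from 93.4 to 94.4 Mb and its 70 distal peaks, the distal ratio was 0.902 (0.834 to 0.975), on the other side of 1. Its matched bins numbered from 23 upwards for each bin, with a median of 83.

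This sum joined a pair of opposite stretches, which were split at 86.4 Mb after the counts were seen. The first 13 bins all lay below their matched medians in distal peaks, with 203 against 435, a ratio of 0.467 (0.405 to 0.535). The last 8 bins all lay above, with 514 against 221, a ratio of 2.32 (2.13 to 2.53). Proximal peaks numbered 80 against 93.6 in the first stretch, a ratio of 0.855 (0.678 to 1.06), and 59 against 38.0 in the last, a ratio of 1.55 (1.18 to 2.00). Since the split was set by these counts, its 2 ratios describe it and test nothing.

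Single bins of the chromosome 17 end ranged widely too. The bin from 73.4 to 74.4 Mb had 3 distal peaks against a matched median of 41, and no matched bin had fewer. The bin from 74.4 to 75.4 Mb, which holds Birc6, had 6 against 39, and the bin from 77.4 to 78.4 Mb had 1 against 21. The bin from 83.4 to 84.4 Mb had 43 against 46 and that from 85.4 to 86.4 Mb 37 against 39, the closest to their medians in the first stretch. The bin from 87.4 to 88.4 Mb, which holds Epcam and Msh6, had 81 against 44.8, the highest count of the end. The bin from 93.4 to 94.4 Mb, with only 4 TSSs, had 70 against 15. The last stretch had 65.9 distal peaks per Mb, above the 42.9 of the densest autosome as a whole, and 26.9 TSSs per Mb.

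**Figure D2:**
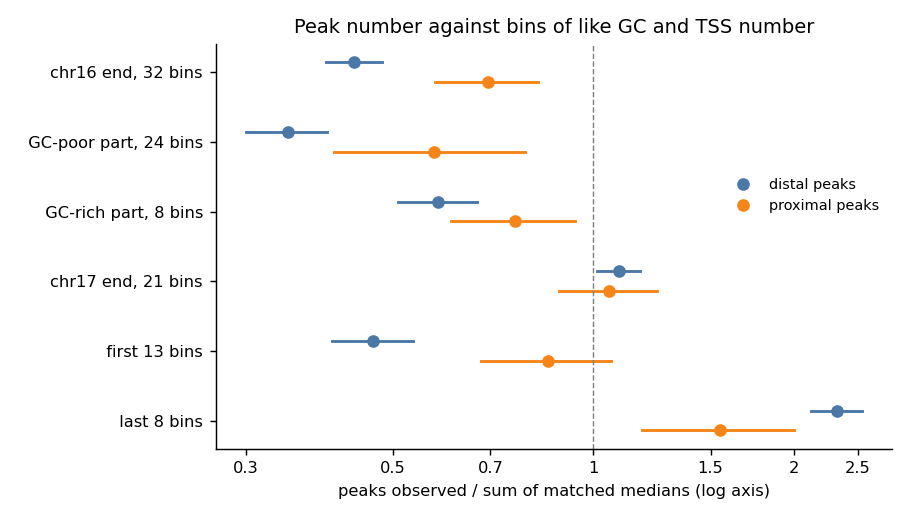
Number of peaks over the sum of the matched medians for each end and its stretches, on a log axis; dots are ratios, lines exact Poisson intervals of the observed number, and the dashed line marks equality. Distal peaks sit at 0.347 to 0.584 in 3 of the 4 stretches and at 2.32 in the last 8 bins of chromosome 17.

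Proximal peaks were set beside the number of TSSs. At the chromosome 16 end the bin from 90.8 to 91.8 Mb, which holds Son, Gart and the interferon receptor genes and has 160 TSSs, had 26 proximal peaks against a matched median of 27.0. The bin from 88.8 to 89.8 Mb, with 41 TSSs and many keratin-associated protein genes, had 0 against 7. At the chromosome 17 end the bin with Epcam and Msh6 had 22 against 10.0, above each of its 87 matched bins. Per 100 TSSs there were 12.2 proximal peaks at the chromosome 16 end, 16.4 in the first stretch of chromosome 17 and 27.6 beyond it, where the other autosomes ran from 15.96 to 21.4.

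**Figure D3:**
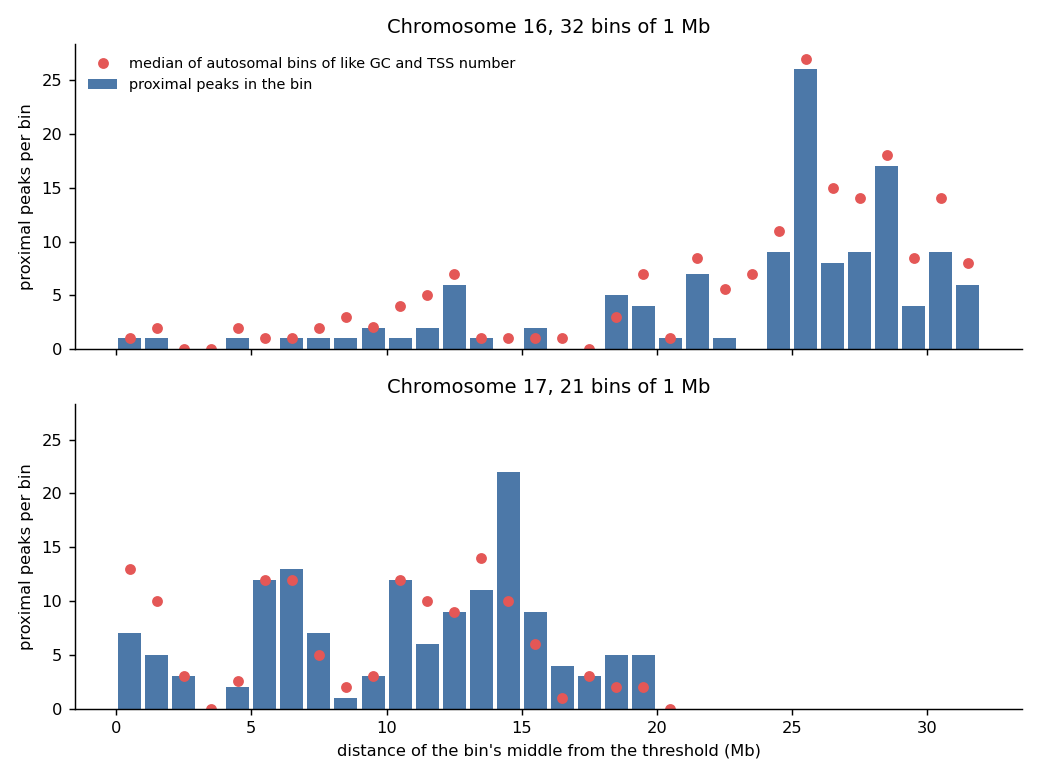
Proximal peaks in each 1 Mb bin of the ends of chromosomes 16 (top) and 17 (bottom), against the distance of the bin from the threshold in Mb; bars are the observed number and dots the median of the matched autosomal bins. On chromosome 16 most bars lie at or below their dots, including the tall bar of 26 against 27.0, and on chromosome 17 the tallest bar of 22 stands above its dot at 10.0.

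The peaks on either side of each threshold were as follows. On chromosome 16 the last peak before the threshold was 387 bp wide and lay between genes at chr16:65765756-65766142, and the first one inside was the 1326 bp promoter peak of Vgll3, a cofactor of TEAD transcription factors, at chr16:65814782-65816107. On chromosome 17 the last peak before the threshold was a 589 bp peak in an intron of Capn13, a calpain gene, at chr17:73342799-73343387. The first one inside was the 1416 bp promoter peak of Galnt14, a glycosyltransferase gene, at chr17:73709481-73710896.

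At the level of genes, 91 of the 156 protein-coding genes of the chromosome 16 end had a TSS peak (58.3%, 50.5 to 65.8%), that is a peak centre within 1 kb of at least 1 of their TSSs. Over all autosomes this share was 72.3%. At the chromosome 17 end 86 of 98 genes had one (87.8%, 79.8 to 92.9%), and in the rest of chromosomes 16 and 17 the shares were 74.2% and 68.0%. These shares rest on the same peaks as the rule and were not tested. Genes that share a promoter share its peak, and 2 genes of the chromosome 16 end, Atp5o and Igsf5, are annotated under 2 identifiers each, so the genes are not independent.

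The promoters were then divided by sequence alone. A promoter was called CpG-rich when the 1 kb around a TSS had at least 55% GC and at least 0.6 of the CG dinucleotides its base composition predicts. All 76 CpG-rich promoters of the chromosome 16 end had a peak (95.2 to 100%), and so did all 64 of the chromosome 17 end (94.3 to 100%). Over all autosomes 99.3% of CpG-rich genes had one, so these full counts did not stand apart. In the rest of chromosomes 16 and 17 they were 259 of 259 and 413 of 417. At the chromosome 16 end the share moved to 93.4% when the peak centre had to lie within 500 bp.

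Genes without a CpG-rich promoter differed between the ends. Only 15 of 80 had a TSS peak at the chromosome 16 end (18.8%, 11.7 to 28.7%), against 47.4% in the rest of the chromosome and 48.2% on the other 17 autosomes. At the chromosome 17 end 22 of 34 had one (64.7%, 47.9 to 78.5%), against 44.0% in the rest of that chromosome. The GC-poor stretch of chromosome 16 had 6 of 55 and the GC-rich stretch 9 of 25 (36.0%, 20.2 to 55.5%). Among the 55 are 24 keratin-associated protein genes that stand close together, none with a TSS peak. Further genes without a TSS peak lie between them. The interval for the 80 genes counts these neighbours as separate, so the low share leans on 1 gene cluster.

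The genes also differed in the distal peaks around them, counted within 50 kb of any of their TSSs. Genes with a CpG-rich promoter had a median of 4 at the chromosome 16 end, 1 in the first stretch of the chromosome 17 end and 8 in its last stretch, where a gene was placed by its last TSS. The medians of the other autosomes ran from 4 to 7. No distal peak lay within 50 kb of 8 of these 76 genes on chromosome 16 (10.5%) and of 15 of 46 in the first stretch of chromosome 17 (32.6%). In the last stretch of chromosome 17 each of the 18 had at least 1, and on the other 17 autosomes 2.97% had none.

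**Figure D4:**
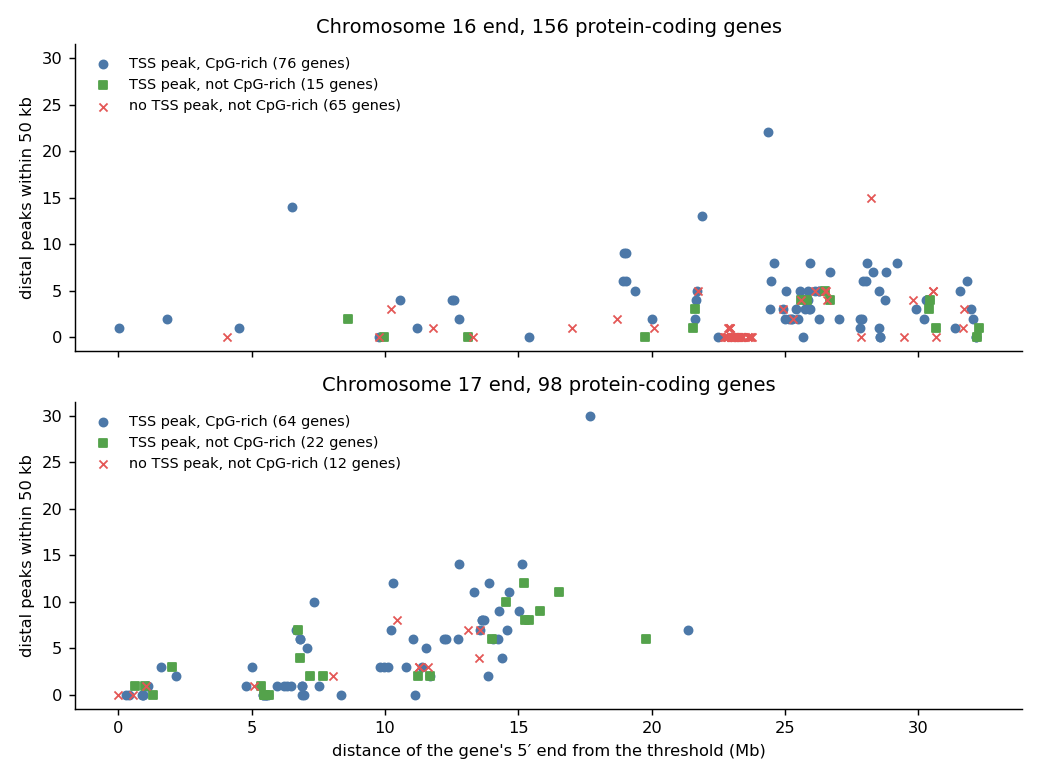
Distal peaks within 50 kb of each protein-coding gene of the ends of chromosomes 16 (top) and 17 (bottom), against the distance of the gene's 5′ end from the threshold in Mb; circles and squares are genes with a TSS peak, crosses genes without one. All 76 and 64 CpG-rich genes carry a TSS peak, the crosses of chromosome 16 crowd near 0 distal peaks at about 23 Mb, and the counts on chromosome 17 are low at first and higher further along.

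Broadly expressed genes of the chromosome 16 end, by a list of 30, all had a TSS peak, and 29 were CpG-rich. With 76 of 76 CpG-rich genes of this end and 99.3% over all autosomes having one, this count is near the share of its promoter class and is no result about the list. The peaks of this list were 737 to 2523 bp wide, with a median of 1418 bp, and the genes had 0 to 13 distal peaks within 50 kb, with a median of 4. Sod1, the cytoplasmic superoxide dismutase, had a promoter peak of 1281 bp and 3 distal peaks nearby. App, the amyloid precursor protein gene, had a peak of 1993 bp and 5 distal peaks. Brwd1, which encodes a bromodomain protein, had the widest peak of the end, at chr16:96081256-96083778, with 2523 bp and 4 distal peaks. Dyrk1a, a kinase gene, had a narrower peak of 770 bp with 7 distal peaks. The 2 genes with none were Zbtb21 and Ttc3, an E3 ubiquitin ligase gene that shares a 1992 bp peak with Pigp.

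Of 9 genes encoding transcription factors at this end, 8 had a TSS peak, also near the share of their class. Runx1, which blood cell formation depends on, had a peak of 2154 bp with 2 distal peaks. Olig1 and Olig2, of the oligodendrocyte lineage, had peaks of 2237 and 429 bp with 2 and 3 distal peaks. Bach1, a repressor of haem-responsive genes, had a peak of 1886 bp and 13 distal peaks, and Sim2, a neural regulator, had 7. Erg, an ETS factor of blood and endothelial cells and the exception, had no TSS peak and 4 distal peaks. The 8 genes with a TSS peak were also the 8 with a CpG-rich promoter.

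All 4 interferon and interleukin receptor genes, Ifnar1, Ifnar2, Il10rb and Ifngr2, had TSS peaks of 942 to 1274 bp, and 3 were CpG-rich. Of CpG-rich genes, 76 of 76 at this end and 99.3% over all autosomes had a TSS peak. Ifnar1, a subunit of the type I interferon receptor, had 0 distal peaks within 50 kb, and Ifnar2, its partner, had 5. Neuronal adhesion, receptor and channel genes, 8 of 10 of them CpG-rich, had a TSS peak in 9 of 10 cases, Kcnj15, a potassium channel gene, being the exception. Over all genes of this end the share was 58.3%. The counts of both lists are near the share of the CpG-rich class and are no result about the lists. Tiam1, an activator of the GTPase RAC1, had 22 distal peaks, the highest number at this end, and Robo1, an axon guidance receptor gene, had 14. Ncam2, an adhesion gene, and Grik1, a glutamate receptor gene, had TSS peaks of 929 and 1498 bp but 0 distal peaks within 50 kb, and Dscam, an adhesion gene, had 1.

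At this end 65 of the 80 genes without a CpG-rich promoter had no TSS peak. Of the epithelial and antiviral list 2 of 6 annotated genes had one, namely Tmprss2, a protease gene, with 1630 bp, and Bace2, also a protease gene, with 1900 bp, and these were its 2 CpG-rich members. The claudin genes Cldn8, Cldn14 and Cldn17 and the antiviral gene Mx1 had none. Cldn14 nevertheless had 15 distal peaks within 50 kb, the second highest number at the chromosome 16 end. None of the 24 keratin-associated protein genes had a TSS peak, none was CpG-rich, and 21 had no distal peak within 50 kb. The other 3 had 1. Over the 55 genes without a CpG-rich promoter in the GC-poor stretch, which include these, 10.9% had a TSS peak and 76.4% had no distal peak within 50 kb. For this class on the other 17 autosomes the shares were 48.2% and 11.2%.

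At the chromosome 17 end the 39 broadly expressed genes all had a TSS peak, 914 to 2220 bp wide with a median of 1316 bp, and 33 were CpG-rich. Over the whole end 87.8% of genes and 64 of 64 CpG-rich genes had one, so this count too is near the share of the class. They had 0 to 14 distal peaks, with a median of 3, and 9 had none. In the first stretch Memo1 had a peak of 1652 bp, Dpy30, of the histone methyltransferase complexes, 1309 bp, and Spast, a microtubule-severing enzyme gene, 1416 bp, each with 0 distal peaks. Birc6, a ubiquitin ligase gene, had 1659 bp and 1 distal peak. Map4k3 and Mta3, further along the same stretch, had 10 and 12. In the last stretch Calm2, a calmodulin gene, had 6, Fbxo11, a ubiquitin ligase subunit, 11, and Ppp1r21 14.

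The mismatch repair gene Msh6 had a peak of 1406 bp with 7 distal peaks. Epcam, an adhesion gene expressed in ES cells and epithelia, had 1615 bp and 6. All 5 genes of the list of regulators were CpG-rich and, like the 64 of 64 genes of that class at this end, had a TSS peak. Six2 and Six3, homeobox genes of kidney and forebrain, had peaks of 1169 and 888 bp with 6 distal peaks each. Epas1, a hypoxia-inducible factor, had 2529 bp with 11, and Foxn2 2220 bp with 9. Zfp36l2, kept in this list although its product binds mRNA, had 1540 bp with 3.

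Both hormone receptor genes of the gonads had a TSS peak without a CpG-rich promoter, as did 8 of the 11 genes of this class in the last stretch (72.7%). Lhcgr, the receptor of luteinising hormone, had 1034 bp and 8 distal peaks, and Fshr, that of follicle-stimulating hormone, 399 bp and 9. Of the steroid enzyme genes Srd5a2 had 736 bp and Cyp1b1 1143 bp, each with 1 distal peak. The sterol transporter genes Abcg5 and Abcg8, and the amino acid transporter gene Slc3a1 had no TSS peak and 3 distal peaks each. The exchanger gene Slc8a1 had a peak of 1671 bp and 0, and the channel genes Kcng3 and Kcnk12 had 1862 and 2228 bp. Of 7 remaining tissue genes 4 had a TSS peak, among them Ltbp1 with 2000 bp and Crim1 with 2360 bp. These were the 4 CpG-rich members of the list. At this end 64 of 64 CpG-rich genes and 87.8% of all genes had a TSS peak. Xdh, Nlrc4 and Vit had none. The widest peak of the chromosome 17 end was the 2542 bp promoter peak of Prkce, a protein kinase C gene, at chr17:86166458-86168999.

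The spaces between peaks were long at the chromosome 16 end. The median gap between neighbouring peaks was 18.2 kb, against 10.8 kb in the rest of the chromosome, and at the chromosome 17 end it was 9.83 kb against 8.19 kb. Gaps above 500 kb numbered 8 at the chromosome 16 end and 2 in the rest of it, and 2 and 0 on chromosome 17. Gaps above 100 kb made up 69.5% of all gap length at the chromosome 16 end and 30.3% in the rest, and 34.3% and 20.7% on chromosome 17. The longest gap, chr16:79661883-81036723, spanned 1375 kb with no protein-coding gene in it and lay between Tmprss15, a gut protease gene, and Ncam2. The longest one of the chromosome 17 end, chr17:77267840-78199495, spanned 932 kb, also without a protein-coding gene, and ended at the 2360 bp promoter peak of Crim1, which encodes a regulator of BMP growth factors.

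Distal peaks were also grouped less at the sparse stretches. Distal peaks standing less than 12500 bp apart were joined into runs, and runs with 3 or more members held 29.1% (24.9 to 33.7%) of the distal peaks at the chromosome 16 end and 30.0% (24.2 to 36.7%) in the first stretch of the chromosome 17 end. They held 64.8% (60.7 to 68.6%) in the last stretch of chromosome 17, 49.1% and 55.3% in the rest of the 2 chromosomes, and 47.4 to 65.8% on the other autosomes. Such runs form more readily where peaks are dense, and the part of density in these shares was not tested. The largest run of the chromosome 16 end had 10 distal peaks at chr16:87705775-87755125, over Bach1. The largest one of the chromosome 17 end had 14, at chr17:94522135-94585228, with Mettl4, a methyltransferase gene, as the nearest gene. Peaks with no other distal peak within that distance made up 47.1% of distal peaks at the chromosome 16 end, 43.3% in the first stretch of chromosome 17 and 18.8% in its last. They made up 30.1% and 24.7% in the rest of chromosomes 16 and 17 and 26.6% on the other 17 autosomes.

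Width and sequence were not used by the rule. Distal peaks of the chromosome 16 end had a median width of 424 bp (388 to 459), against 376 bp (360 to 400) in the rest of the chromosome and 333 to 442 bp on the other autosomes. In the first stretch of chromosome 17 the median was 415 bp (367 to 494), whereas in the last it was 312 bp (297 to 335), below the medians of all 17 other autosomes. The medians of the sparse stretches thus lay within the range of the autosomes, and that of the dense stretch below it. Distal peaks above 1 kb were 4.61% of those at the chromosome 16 end, against 5.94 to 8.39% on the other autosomes. The widest was a 2514 bp peak in an exon of Adamts5, a matrix protease gene, at chr16:85899108-85901621, with its centre 1464 bp from the TSS. Its edge lay close to this TSS, at 85901828, so it was distal by its centre only. Adamts5 was accordingly counted as a gene without a TSS peak. At the chromosome 17 end the widest distal peak had 2198 bp and lay between genes at chr17:89933127-89935324.

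Proximal peaks had a median width of 1122 bp (990 to 1255) at the chromosome 16 end and 1047 bp (888 to 1277) in the first stretch of chromosome 17. In its last stretch the median was 685 bp (545 to 1062), and the other autosomes ran from 910 to 1036 bp. One end is 1 unit, so these differences were set beside the range of autosomes and not tested over peaks.

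**Figure D5:**
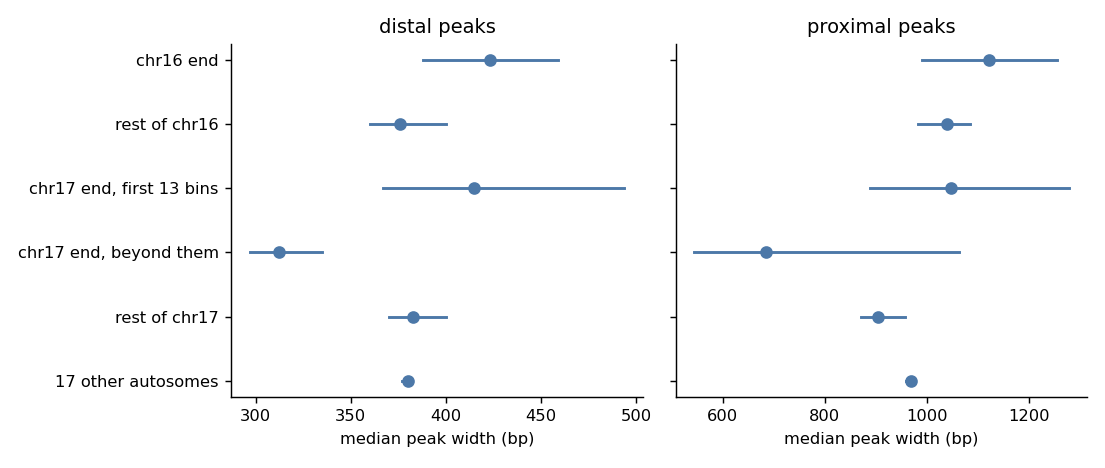
Median width in bp of distal (left) and proximal (right) peaks by region; dots are medians, lines their order-statistic 95% intervals, and the axes do not start at 0. The distal median of 312 bp beyond the first 13 bins of chromosome 17 is the lowest shown, and that of 424 bp at the chromosome 16 end the highest.

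By position, 24.3% (20.9 to 28.0%) of the peaks of the chromosome 16 end were proximal, against 20.97% in the rest of the chromosome and 17.4 to 29.0% on the other autosomes. Introns held 33.8%, exons 4.60% and the space between genes 37.3%. The GC-poor stretch had 15.8% (11.8 to 20.985%) proximal peaks and 51.3% (45.0 to 57.5%) between genes. The GC-rich stretch had 30.9% (26.0 to 36.3%) and 26.3% (21.7 to 31.5%). On chromosome 17 the proximal share was 28.3% (23.3 to 33.8%) in the first stretch and 10.1% (7.997 to 12.8%) in the last, the latter below the range of autosomes. Peaks between genes made up 39.9% (34.4 to 45.7%) of the first and 60.8% (56.9 to 64.5%) of the last stretch, where the autosomes ran from 30.7 to 46.8%.

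Repeats and base composition differed in the same stretches. Distal peaks of the last stretch of chromosome 17 had a median of 46.2% GC, and 25.4% of them were masked as repeats over most of their length by the lower-case bases of the genome sequence. In the first stretch the values were 49.6% GC and 8.37%, and at the chromosome 16 end 49.0% and 16.5%. The autosomes ran from 46.0 to 49.8% GC and from 9.45 to 19.5% mostly masked. Within the chromosome 16 end the GC-poor stretch had 26.2% mostly masked distal peaks and the GC-rich stretch 7.14%.

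The composite OCT4::SOX2 sequence, as searched above, was found in 2 of 412 distal peaks at the chromosome 16 end (0.485%, 0.133 to 1.75%) and in 5 of 762 at the chromosome 17 end (0.656%, 0.281 to 1.53%). The share was 0.761% on the other 17 autosomes, within both intervals. The OCT site alone, ATGCAAAT, was found in 1.94% (0.987 to 3.78%) and 3.81% (2.66 to 5.41%) of distal peaks, against 2.22 to 3.40% on the other autosomes. The SOX site, ACAATGG, was found in 13.1% (10.2 to 16.7%) and 8.92% (7.10 to 11.2%), against 8.69 to 10.6%. Within the chromosome 16 end it was found in 17.8% (13.2 to 23.7%) of distal peaks in the GC-poor stretch and 8.57% (5.49 to 13.1%) in the GC-rich one. ESRRB sites, TCAAGGTCA, bound by an orphan nuclear receptor of ES cells, were found in 3.16% and 3.54%, against 2.34 to 3.70%. Matches to the composite and to these single sites can overlap, so the counts are not separate.

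The CTCF consensus was found in 28 of 412 distal peaks at the chromosome 16 end (6.80%, 4.74 to 9.65%) and in 24 of 762 at the chromosome 17 end (3.15%, 2.13 to 4.64%). Within the central 200 bp of the peaks the shares were 3.16% (1.85 to 5.32%) and 2.36% (1.499 to 3.70%). The rest of the chromosomes had 5.12% and 4.09% over whole peaks, and the other autosomes ran from 2.50 to 6.07%. In the GC-rich stretch of chromosome 16 the share was 9.05% (5.87 to 13.7%) and in the GC-poor stretch 4.46% (2.36 to 8.25%), and in the last stretch of chromosome 17 it was 2.50% (1.498 to 4.16%). KLF sites, GGGNGNGGC, which are GC-rich, were found in 28.1% (22.5 to 34.5%) of distal peaks in the GC-rich stretch of chromosome 16 and 9.84% (7.64 to 12.6%) in the last stretch of chromosome 17, where the autosomes ran from 11.4 to 22.0%. The GC-poor stretch of chromosome 16 had 14.9% (10.6 to 20.4%) and the first stretch of chromosome 17 23.6% (18.3 to 29.9%), and the whole ends had 21.6% and 13.5%. In proximal peaks they were found in 54.5% and 50.3% at the 2 ends, against 44.7 to 60.03%. A match is a run of letters and says nothing of binding.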

How the data were processed

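The data were 1 list of merged ATAC-seq peaks for 54 samples, with chromosome, start and end in bp and no count or signal. The deposited positions, in other units than counts, were made by the authors, who aligned reads to GRCm38 (mm10) with STAR 2.6.1c, removed duplicates with Picard, called peaks with MACS2 2.1.1.20160309 and merged them with BEDTools. The study describes removal of regions above 5 kb, of which the list held 11, none in either end. It also describes removal of regions overlapping blacklisted ones or peaks of input samples. Whether these filters had been applied to the list is unknown here. Since 1 library is enough to put a region into a merged list, more libraries or deeper ones give more peaks.

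Peaks, all within the chromosome lengths of GRCm38.p6, were annotated with GENCODE M21 and are given 1-based. Thresholds were those of the rule. Bins were 1 Mb long, started at the threshold on chromosomes 16 and 17, and needed 50% sequenced bases. The last bin of each end fell short of this and had no matched bins. It held 1 distal and 6 proximal peaks on chromosome 16 and 45 and 4 on chromosome 17. Expected numbers were medians of matched bins, summed. Classes were assigned at the peak centre in the order promoter, exon, intron and space between genes. Shares have Wilson, numbers exact Poisson and medians order-statistic 95% intervals. Genes were named by lists used whole, and Mx2 was not analysed here. Some listed items are not reported here. The members and lists were chosen with earlier results of these data known. Python 3.11.15, numpy 2.4.6, pandas 2.3.3, scipy 1.17.1 and matplotlib 3.10.9 were used, and the counting was checked on simulated data. No test was made, since the list holds no replicate. Alternatives were other distance limits, widths, bin lengths, matched bins, starts of the ends, TSS sets and motif settings.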

Additional observations from a re-analysis of the deposited data

How the results depend on the processing

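Of 90 alternative values for 14 results, 78 moved by less than the counting interval and 12 moved further. The 78 include the values without peaks above 5 kb. These equalled the main ones, since neither end held such a peak, and say nothing of stability. With bins of the same chromosome only, the ratio of distal peaks was 0.551 at the chromosome 16 end (5 bins matched) and 0.25 at the chromosome 17 end (1 bin matched), and that of proximal peaks at the chromosome 16 end 0.533. With 4 bins of 5 Mb, which hold less of the end, the ratio of distal peaks at the chromosome 17 end was 0.902, on the other side of 1 from the main 1.09. The proximal share of peaks was 20.4% and 12.49% at the 2 ends with a limit of 500 bp and 33.5% and 20.2% with 2500 bp. The share of CpG-rich promoters with a peak at the chromosome 16 end was 93.4% with peak centres within 500 bp. Peaks with a CTCF consensus were 18.2% and 10.9% with 1 mismatch, and 3.16% at the chromosome 16 end within the central 200 bp. No paired analysis was possible because the list holds no sample values and no result comes from a test. Depth and replicate error are unknown here, the rule chose the ends by peak number, and matched medians lie below means where counts are skewed.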

Other observations

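Long runs of 1 Mb bins below their matched median in distal peaks were also found elsewhere. The longest one, on chromosome 14 from 56.0 to 97.0 Mb, had 41 bins with 357 distal peaks against 1244, a ratio of 0.287. The 32 bins of the chromosome 16 end came next, followed by 29 bins on chromosome 9 from 41.0 to 70.0 Mb with a ratio of 0.659. The first stretch of the chromosome 17 end, with 13 bins, was tied in length with runs on chromosomes 14 and 18. The run on chromosome 14 was followed directly by 20 bins above their medians, from 97.0 to 117 Mb, with 1924 against 449.5 and a ratio of 4.28. Among runs above their medians the longest was one of 28 bins on chromosome 3 with a ratio of 1.52, and the last stretch of chromosome 17 had 8 bins, the fewest for which runs were listed. These runs were ordered after the counts were seen, and bins were not tested.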
